A study of Homo sapiens with 6 samples.

Results

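The miRNAs described here are 5 mature miRNAs whose hairpins lie inside the HOX gene clusters, hsa-miR-10a-5p, hsa-miR-10a-3p, hsa-miR-10b-5p, hsa-miR-196a-5p and hsa-miR-196b-5p. They were taken by name, and all 5 are among the 832 miRNAs of the deposited table, of which 782 carry a miRBase name. The table holds small RNA libraries of extracellular vesicles (EVs) released into EV-free medium by MDA-MB-231 (a cell line from a human triple-negative breast tumour) and pelleted by ultracentrifugation. One group is EVs of cells without the knockdown (231 EV, n = 3) and the other is EVs of the same line with ACO1 knockdown (231 ACO1KD EV, n = 3). ACO1 is the iron-responsive aconitase that binds RNA when iron is scarce, and the study asked whether it helps load a miRNA into EVs. How the knockdown was made, and whether the cells without it carried a control construct, are not given in the sources used here.

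HOX genes encode homeobox transcription factors that set position along the body axis, and they stand in 4 clusters named A to D. The miR-10 and miR-196 hairpins lie within these clusters and are often transcribed with HOX genes. Their products repress HOX messenger RNAs and many others through a seed, the bases at positions 2 to 8 of the mature miRNA. Each hairpin yields a 5p and a 3p arm, of which the 5p arm is usually the guide strand in both families. In breast cancer, miR-10b is best known for its induction by TWIST1 and its link to invasion. miR-196a is known for repressing HOXB8 in limb development, which is not a cancer setting.

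The sequences below show how the members are related, since members with the same seed are counted separately on the strength of very few bases. Capitals mark the seed, and sequences are from RefSeq on GRCh38.p14, which held 4 of the 5 members. The entry for hsa-miR-10b-5p was missing.
hsa-miR-10a-5p: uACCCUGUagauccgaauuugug
hsa-miR-10a-3p: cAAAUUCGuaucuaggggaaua
hsa-miR-196a-5p: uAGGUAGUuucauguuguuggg
hsa-miR-196b-5p: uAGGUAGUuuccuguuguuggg
hsa-miR-100-5p: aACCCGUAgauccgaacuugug
hsa-miR-99a-5p: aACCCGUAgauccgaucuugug
hsa-miR-99b-5p: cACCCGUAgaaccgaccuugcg
hsa-miR-196a-5p and hsa-miR-196b-5p share their seed and differ by 1 substitution, A12C, counted from 1 at the 5′ end, with the base of hsa-miR-196a-5p first. Of the 715 miRNAs of the table with a RefSeq sequence, 2 have the seed AGGUAGU, and they are these members. hsa-miR-100-5p, hsa-miR-99a-5p and hsa-miR-99b-5p, the 3 relatives of miR-10 outside the HOX clusters, are printed because they resemble hsa-miR-10a-5p but share a different seed among themselves. hsa-miR-100-5p has the 11 bases GUAGAUCCGAA from position 6, and hsa-miR-10a-5p has them from position 7. The longest run shared with hsa-miR-10a-5p is 10 bases for hsa-miR-99a-5p and 5 bases for hsa-miR-99b-5p. The letters CAUUG, which the study places at the ACO1 contact of another miRNA, occur in 21 of the 715 mature sequences (2.94%, read 5′ to 3′ on the mature strand) and in none of the 4 member sequences.

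The hairpins come from each of the 4 HOX clusters. On GRCh38, GENCODE release 29 places MIR10A on chromosome 17 from 48579838 to 48579947 on the minus strand, in intron 1 of the principal HOXB3 transcripts and within exon 1 of HOXB4-201. The mature hsa-miR-10a-5p covers chr17:48579904-48579926 and hsa-miR-10a-3p covers chr17:48579864-48579885. MIR10B lies on chromosome 2 from 176150303 to 176150412 on the plus strand, 810 bp upstream of HOXD4 and in intron 1 of a non-principal HOXD3 transcript. hsa-miR-196a-5p has 2 hairpins. MIR196A1 is in the HOXB cluster (chromosome 17, 48632490 to 48632559, minus strand), in intron 1 of HOXB7-203, a non-principal transcript. MIR196A2 is in the HOXC cluster (chromosome 12, 53991738 to 53991847, plus strand). It lies in intron 1 of the non-principal HOXC6-203 and in intron 1 of AC012531.2-201, a principal transcript of another gene. Counts on this 5p arm cannot be assigned to either hairpin. MIR196B lies in the HOXA cluster on chromosome 7 from 27169480 to 27169563 on the minus strand, 1028 bp downstream of HOXA10. It is in intron 1 of HOXA9-203 and HOXA9-204 and in exon 1 of HOXA9-205, none of them a principal transcript. AC004080.3-201, a principal transcript of another gene, also has MIR196B in intron 1.

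Library totals were 224948 to 230562 counts in 231 EV and 67873 to 175924 in 231 ACO1KD EV, so that a count of 3, the limit that a count of 0 allows, stood for 13.0 to 13.3 TPM and for 17.1 to 44.2 TPM. TPM here is the count scaled by the total of the library alone, with no length term. By chi-square tests no pair of replicates matched within sampling noise, and each was kept as 1 sample. The chi-square per degree of freedom was 3.64 to 4.41 within 231 EV and 7.21 for 231 ACO1KD EV replicates 1 and 2. It was 22.6 and 17.3 for the pairs of 231 ACO1KD EV replicate 3 with replicates 1 and 2, so this library stood apart from the others of its group. No label says that they came from separate cultures, so p-values measure the spread between these libraries, which may be technical. The 6 miRNAs taken as typical of the line, among them hsa-miR-21-5p and hsa-miR-100-5p, were present in every library, and their sum lay between 384849 and 420685 TPM in 231 EV and between 213369 and 294129 TPM in 231 ACO1KD EV. Of the 6 epithelial miRNAs of the miR-200 family and miR-205, 5 were present in every library at a sum of 619 to 992 TPM over both groups. Leukocyte miRNAs (4 of 4 present throughout) summed to between 8200 and 9660 TPM in 231 EV and between 13431 and 15171 TPM in 231 ACO1KD EV, and the liver miRNA hsa-miR-122-5p lay between 985 and 1887 TPM over both groups.

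The levels of the HOX-cluster miRNAs were led by hsa-miR-10a-5p, with every other member far below it. hsa-miR-10a-5p had 4294, 4467 and 4542 TPM in 231 EV replicates 1, 2 and 3 and 3263, 2829 and 3687 TPM in 231 ACO1KD EV replicates 1, 2 and 3. It was the 30th to 32nd most abundant miRNA in the control libraries and the 41st to 51st in the knockdown libraries. hsa-miR-196a-5p followed with 356, 503 and 507 TPM in 231 EV and 404, 427 and 324 TPM in 231 ACO1KD EV, overlapping between the groups. hsa-miR-10b-5p had 307, 234 and 262 TPM in 231 EV and 267, 295 and 229 TPM in 231 ACO1KD EV, again with overlap. hsa-miR-10a-3p, the other arm of the miR-10a hairpin, had 267, 230 and 222 TPM in 231 EV and 205, 118 and 178 TPM in 231 ACO1KD EV, where the highest knockdown value was below the lowest control value. hsa-miR-196b-5p had 2, 0 and 1 counts in 231 EV and 2, 2 and 0 counts in 231 ACO1KD EV, which is within the limit that a count of 0 allows. No fold is therefore given for it, since this depth could not show one.

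Neighbours in this order were not equally far apart. The libraries of hsa-miR-10a-5p lay above those of every other member in both groups. hsa-miR-196a-5p and hsa-miR-10b-5p did not overlap in either group (lowest hsa-miR-196a-5p 356 against highest hsa-miR-10b-5p 307 TPM in 231 EV, and 324 against 295 TPM in 231 ACO1KD EV). hsa-miR-10b-5p and hsa-miR-10a-3p overlapped in 231 EV, at 268 ± 36.6 and 240 ± 23.8 TPM (SD, n = 3). In 231 ACO1KD EV they stood at 264 ± 33.1 and 167 ± 44.4 TPM (SD, n = 3), without overlap. The SD expected from counting alone was 34.3 TPM for hsa-miR-10b-5p and 32.5 TPM for hsa-miR-10a-3p in 231 EV. In 231 ACO1KD EV it was 47.9 TPM for hsa-miR-10b-5p, 40.0 TPM for hsa-miR-10a-3p and 58.0 TPM for hsa-miR-196a-5p. Each of these is wider than the gaps that kept hsa-miR-10b-5p apart from hsa-miR-196a-5p and hsa-miR-10a-3p in that group. For hsa-miR-10a-5p the SD in 231 EV, 127 TPM, was below the 140 TPM that counting alone would give, and in 231 ACO1KD EV it was 429 TPM against 173 TPM.

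The 5 members together took 0.523%, 0.543% and 0.554% of all counts in 231 EV and 0.415%, 0.370% and 0.442% in 231 ACO1KD EV. The knockdown libraries all lay lower on this scale. hsa-miR-10a-5p made up 82.0% to 82.2% of the members' counts in 231 EV and 76.5% to 83.5% in 231 ACO1KD EV, so the sum is mostly a readout of this 1 miRNA. In the ranking of all miRNAs by mean TPM, hsa-miR-29c-3p and hsa-miR-148a-3p stood next to hsa-miR-10a-5p, and hsa-miR-486-5p and hsa-miR-205-5p next to hsa-miR-196a-5p.

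The comparison of 231 ACO1KD EV with 231 EV asked whether these miRNAs changed in EVs of knockdown cells. hsa-miR-10a-5p fell, and it did so under each scaling and test that was tried. The other 3 members above the limit of detection had log2 fold changes below 0 that did not pass the adjusted threshold. Counts were scaled by edgeR's TMM method, which assumes that most miRNAs do not change, and compared by its quasi-likelihood test over the 517 miRNAs detected (count above 0) in 3 or more of the 6 libraries. With an adjusted p under 0.05, 1 of the 5 members was called, and it was lower. Of all 517 miRNAs, 8.51% were called in either direction, 6.0% lower and 2.51% higher, so 1 of 5 is not a count that sets the members apart. hsa-miR-10a-5p was also the single member called with library totals (13.7% of all tested miRNAs called, 2.51% lower and 11.2% higher), with DESeq2 (7.93%, 5.03% lower and 2.90% higher) and with limma on log2(TPM + 1) (14.5%, 3.09% lower and 11.4% higher). In bulk EV libraries, fewer vesicles carrying a miRNA and less of it per vesicle cannot be told apart.

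The log2 fold change of hsa-miR-10a-5p was -0.79 (standard error 0.16, 95% interval -1.1 to -0.48), with a Benjamini-Hochberg adjusted p of 2.73e-05 in edgeR's quasi-likelihood test. Its mean TPM in 231 ACO1KD EV was 0.735 times that in 231 EV, and after TMM scaling the mean was 0.576 times, at 2894 ± 509 against 5025 ± 359 CPM (SD, n = 3). The groups did not overlap on either scale. Part of the size therefore depends on the scaling. TMM multiplied the control libraries' totals by 0.840 to 0.915 and those of the knockdown libraries by 1.09 to 1.20. With library totals in its place the log2 fold change of hsa-miR-10a-5p was -0.44 (edgeR adjusted p = 0.0421), while the median of all tested miRNAs moved from -0.03 to 0.32. Relative to the median miRNA, hsa-miR-10a-5p was thus about equally low with either scaling. A change of scaling shifts all miRNAs by nearly the same amount, so this follows from the method and tests nothing.

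hsa-miR-10a-3p, the less abundant arm, had a log2 fold change of -0.80 (standard error 0.30, 95% interval -1.38 to -0.21, edgeR adjusted p = 0.066). Its counts were 60, 53 and 50 in 231 EV and 36, 8 and 28 in 231 ACO1KD EV. The lowest of these, in the shallowest library, corresponds to 118 TPM with a 95% Wilson interval of 59.7 to 233 TPM that covers counting error only. Its groups did not overlap, but its adjusted p was above the threshold.

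hsa-miR-196a-5p had a log2 fold change of -0.61 (standard error 0.26, 95% interval -1.11 to -0.11, edgeR adjusted p = 0.121) with counts of 80, 116 and 114 against 71, 29 and 51. With library totals its log2 fold change was -0.25 (95% interval -0.76 to 0.25). hsa-miR-10b-5p had a log2 fold change of -0.39 (standard error 0.28, 95% interval -0.94 to 0.16, edgeR adjusted p = 0.531) with counts of 69, 54 and 59 against 47, 20 and 36. With library totals it was at -0.04 (95% interval -0.59 to 0.51). These intervals leave room both for a change as large as that of hsa-miR-10a-5p and for none in hsa-miR-10b-5p.

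Over the 4 members above the limit of detection the median log2 fold change was -0.70, beside -0.03 over all 517 miRNAs, and with library totals it was -0.35 beside 0.32. Including the fitted value of hsa-miR-196b-5p, whose counts give no fold, the median over 5 was -0.61. Groups did not overlap, with knockdown lower, for 2 of the 5 members on the TPM scale (5.80% of all tested miRNAs, with 22.6% not overlapping in the other direction) and for 4 of the 5 after TMM scaling (12.8%, with 11.6% in the other direction). The difference between these counts is made by hsa-miR-10b-5p and hsa-miR-196a-5p, which overlapped in TPM. The 2 members without overlap on the TPM scale, hsa-miR-10a-5p and hsa-miR-10a-3p, are arms of 1 hairpin. They are not independent members, and this hairpin supplies 2 values to each members' median above.

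**Figure D1:**
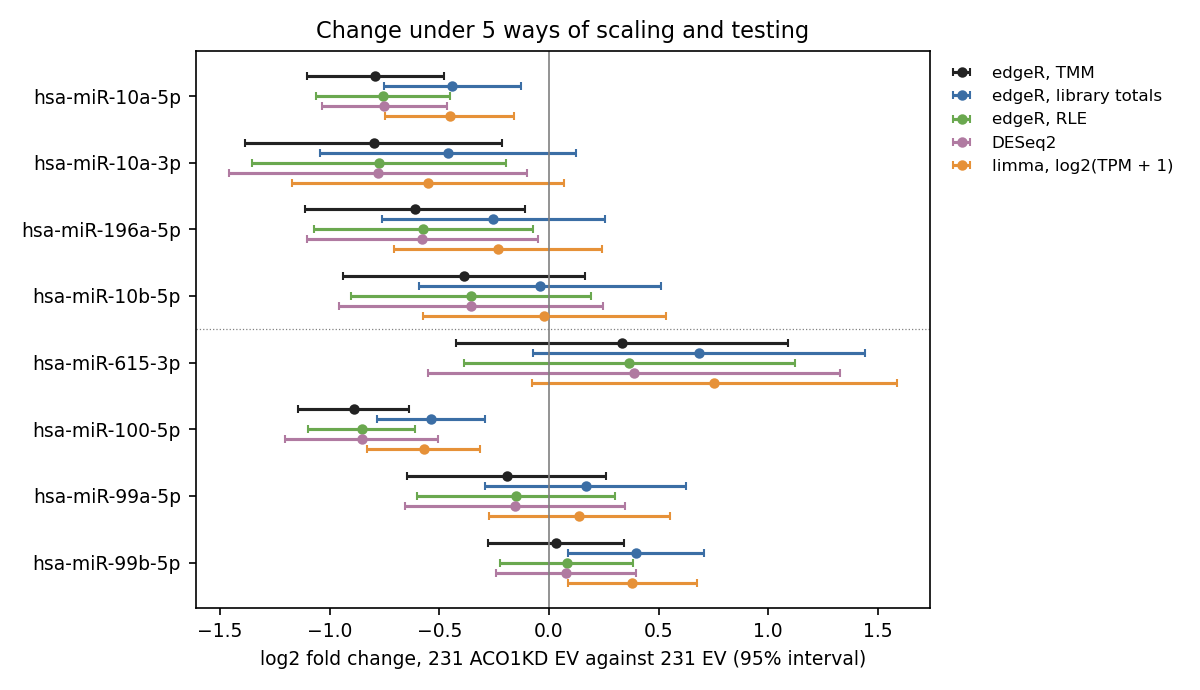
Log2 fold change of 231 ACO1KD EV against 231 EV with 95% intervals under 5 combinations of scaling and test, for 4 HOX-cluster members (above the dotted line) and for hsa-miR-615-3p, hsa-miR-100-5p, hsa-miR-99a-5p and hsa-miR-99b-5p (below it). Each interval of hsa-miR-10a-5p lies below 0, as does each interval of hsa-miR-100-5p, and those of hsa-miR-10b-5p include 0.

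A share of counts within a library does not depend on scaling, so the a and b members were set against each other in this way. The a members dominated both families. hsa-miR-10a-5p made up 93.3%, 95% and 94.5% of the miR-10a-5p and miR-10b-5p counts in 231 EV and 92.4%, 90.6% and 94.2% in 231 ACO1KD EV. The groups overlapped, because 231 ACO1KD EV replicate 3 stood above 231 EV replicate 1. The mean share was lower by 1.91 percentage points in the knockdown (94.3% ± 0.869 against 92.4% ± 1.80, SD, n = 3, two-sided exact permutation p = 0.2, where 3 against 3 libraries allow no p under 0.1). Without 231 ACO1KD EV replicate 2, the shallowest library, the difference was -1.0 percentage points. A call for hsa-miR-10a-5p and none for hsa-miR-10b-5p is therefore not a difference shown between them. The widest counting interval was that of 231 ACO1KD EV replicate 2, 85.9% to 93.8% (95% Wilson). Whether any counts on hsa-miR-10b-5p are misread copies of hsa-miR-10a-5p was not tested. Without the hsa-miR-10b-5p sequence, how alike these 2 members are is not shown here.

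hsa-miR-196a-5p made up 97.6%, 100% and 99.1% of the miR-196 5p counts in 231 EV and 97.3%, 93.5% and 100% in 231 ACO1KD EV. The counts of the b member behind these shares were 0 to 2 per library, and the exact permutation test gave p = 0.5 (two-sided, n = 3 per group) for a difference of -1.96 percentage points. That difference was -0.27 without 231 ACO1KD EV replicate 2 and -3.49 without 231 ACO1KD EV replicate 3. The members differ by a single base, and whether any of the 7 counts on hsa-miR-196b-5p (3 in 231 EV and 4 in 231 ACO1KD EV) are misread copies of hsa-miR-196a-5p was not tested.

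**Figure D2:**
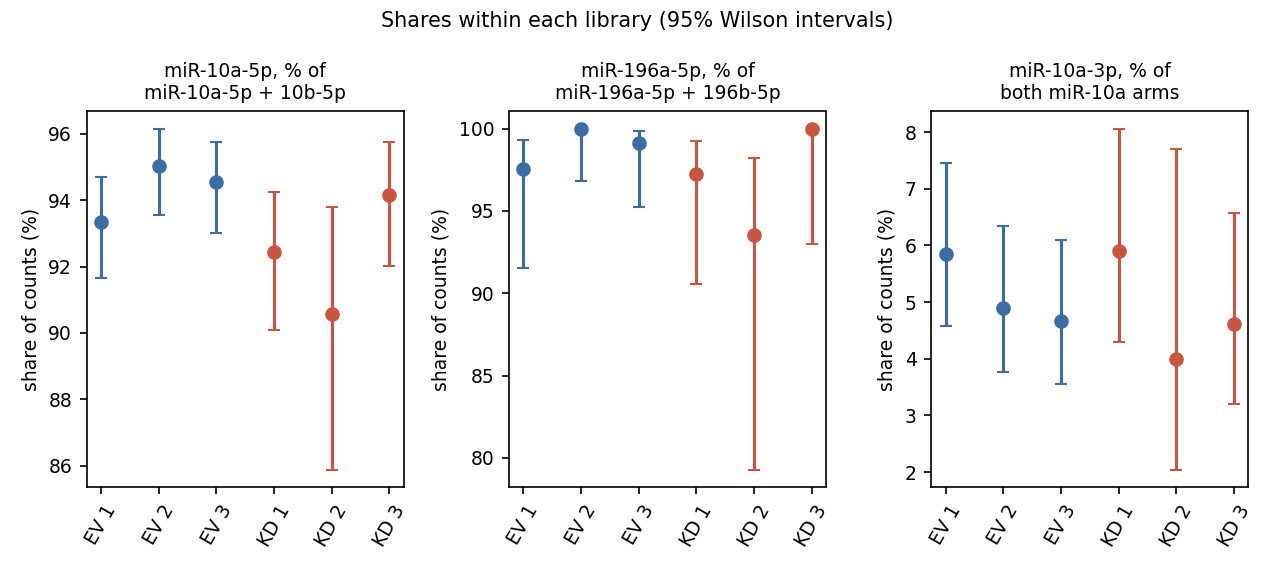
Share of counts in each library, in percent, for hsa-miR-10a-5p within the miR-10 5p arms, hsa-miR-196a-5p within the miR-196 5p arms and hsa-miR-10a-3p within both miR-10a arms. Points are single libraries (EV for 231 EV in blue, KD for 231 ACO1KD EV in red) with 95% Wilson intervals, the vertical axes do not start at 0, and the groups overlap in each panel.

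Both arms of the miR-10a hairpin had closely similar log2 fold changes. hsa-miR-10a-3p made up 5.85%, 4.89% and 4.66% of the counts on both arms in 231 EV and 5.90%, 4.0% and 4.61% in 231 ACO1KD EV. These values overlapped, with means of 5.14% ± 0.628 and 4.84% ± 0.972 (SD, n = 3, two-sided exact permutation p = 0.6). The sign of this small difference turned without 231 EV replicate 1 (0.0566 percentage points) and without 231 ACO1KD EV replicate 2 (0.12 percentage points). In the table, 38 hairpins have both arms at a mean count of at least 10. Over these the median difference in log2 fold change between arms was 0.33 and the largest was 1.87, while the miR-10a arms differed by 0.00837, the third smallest difference. The standard error of the 3p arm alone, 0.30, is far above that gap, so the closeness is given as a description. The minor arm of miR-10a took 5.11% of its counts over all libraries, beside a median of 7.67% over the 38 hairpins. For hsa-miR-196a-3p, from the MIR196A2 hairpin, counts were 0 to 3 per library, and for hsa-miR-10b-3p they were 0 to 1, so the arms of those hairpins could not be compared. hsa-miR-196a-1-3p and hsa-miR-196b-3p are not in the table used here.

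Another HOX-cluster hairpin, MIR615 on chromosome 12 in intron 1 of HOXC5, did not share the low values of hsa-miR-10a-5p. hsa-miR-615-3p had 71.1, 60.7 and 107 TPM in 231 EV and 125, 177 and 102 TPM in 231 ACO1KD EV. The groups overlapped, and the log2 fold change was 0.33 (standard error 0.39, 95% interval -0.42 to 1.09, edgeR adjusted p = 0.742). hsa-miR-615-5p had 0 to 2 counts per library.

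Outside the HOX clusters, hsa-miR-100-5p is both the most abundant relative of miR-10 in these libraries and the one whose bases it shares over the longest run. It had 30532, 31679 and 35892 TPM in 231 EV and 17962, 19743 and 29837 TPM in 231 ACO1KD EV, without overlap. It fell, at a log2 fold change of -0.89 (standard error 0.13, edgeR adjusted p = 3.37e-10) and of -0.54 with library totals. hsa-miR-99b-5p had 3330, 3344 and 3613 TPM in 231 EV and 4906, 5142 and 3521 TPM in 231 ACO1KD EV. Its log2 fold change was 0.03 (95% interval -0.28 to 0.34) with TMM and 0.40 (95% interval 0.09 to 0.71, edgeR adjusted p = 0.0743) with library totals. hsa-miR-99a-5p was at -0.19 with TMM and 0.17 with library totals, with intervals that include 0 in both.

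Ratios to these and other miRNAs within a library placed the fall of hsa-miR-10a-5p among them. Per 100 counts of hsa-miR-99b-5p there were 129, 134 and 126 counts of hsa-miR-10a-5p in 231 EV and 66.5, 55.0 and 105 in 231 ACO1KD EV. All knockdown libraries were lower in this ratio (two-sided exact permutation p = 0.1, the smallest that 3 against 3 libraries allow). Per 100 counts of hsa-miR-21-5p, the most abundant miRNA, there were 1.51, 1.43 and 1.5 counts of hsa-miR-10a-5p in 231 EV and 2.68, 2.41 and 2.0 in 231 ACO1KD EV. All knockdown libraries were higher in this ratio (exact permutation p = 0.1), so hsa-miR-10a-5p was lower against hsa-miR-99b-5p and higher against hsa-miR-21-5p. Against hsa-miR-100-5p the groups overlapped, with 14.1, 14.1 and 12.7 counts per 100 in 231 EV and 18.2, 14.3 and 12.4 in 231 ACO1KD EV (exact permutation p = 0.7). Against hsa-miR-196a-5p they overlapped as well, at 888 to 1208 counts per 100 in 231 EV and 662 to 1137 in 231 ACO1KD EV (exact permutation p = 0.5). With 7 ratios compared, the lowest Benjamini-Hochberg adjusted exact permutation p was 0.35, and the 4 ratios of hsa-miR-10a-5p to other miRNAs were chosen after the levels were seen.

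Marker miRNAs moved between the groups in both directions and are given here beside hsa-miR-10a-5p. Of the 6 miRNAs taken as typical of the line 5 fell, and hsa-miR-29a-3p was at -0.02 on the log2 scale without passing. The 5 log2 fold changes were -2.72 (hsa-miR-146a-5p), -1.44 (hsa-miR-21-5p), -0.89 (hsa-miR-100-5p), -0.87 (hsa-miR-221-3p) and -0.56 (hsa-miR-222-3p). Red-cell miRNAs were also lower. All 4 (hsa-miR-451a, hsa-miR-144-3p, hsa-miR-144-5p and hsa-miR-486-5p) were present in every library, with sums between 2503 and 2676 TPM in 231 EV and between 1597 and 2123 TPM in 231 ACO1KD EV. By edgeR's quasi-likelihood test, 2 of the 4 fell, hsa-miR-451a by 0.94 and hsa-miR-486-5p by 1.08 on the log2 scale. Of the 6 epithelial miRNAs 1 fell, hsa-miR-205-5p by 0.93 on the log2 scale (edgeR adjusted p = 0.00749). Among the leukocyte miRNAs 2 of 4 rose, hsa-miR-223-3p by 0.51 and hsa-miR-150-5p by 0.72. These marker calls are from edgeR with TMM, where 6.0% of all 517 tested miRNAs were called lower and 2.51% higher. With library totals those shares were 2.51% and 11.2%, so the directions called depend on the scaling. The knockdown libraries were also the shallower ones. The part of these differences in the result for hsa-miR-10a-5p was not tested.

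The miRNAs whose pattern over the 6 libraries was closest to each member were sought among 213 with a miRBase name and a mean count of at least 10, by the root mean square difference of centred log2(CPM + 1). For hsa-miR-10a-5p they were hsa-miR-181a-5p (0.11), hsa-miR-32-5p (0.12) and hsa-miR-222-3p (0.14). For hsa-miR-10a-3p they were hsa-miR-584-5p (0.18), its own other arm hsa-miR-10a-5p (0.21) and hsa-miR-381-3p (0.22). hsa-miR-10b-5p was nearest to hsa-miR-148a-3p (0.13), hsa-miR-183-5p (0.14) and hsa-miR-423-5p (0.16), and neither miR-10a arm was among its closest. At 20 to 69 counts of hsa-miR-10b-5p per library, this order does not show a pattern apart from that of miR-10a. hsa-miR-196a-5p was farther from its closest miRNAs, hsa-miR-374b-5p (0.22), hsa-miR-320a-3p (0.24) and hsa-miR-103a-3p (0.24). It had 29 to 116 counts per library, against 192 to 1030 for hsa-miR-10a-5p. Counting error widens such distances as counts fall and was not separated from them.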

How the data were processed

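Per the study's methods, the authors trimmed reads, collapsed identical sequences of 18 to 32 nt, removed other RNA classes with Rfam 10.1, counted known miRNAs by BLAST against miRBase 21.0 and predicted others. The labels name hg38, Bowtie2 and StringTie. The authors deposited read counts per miRNA and TPM, which here is the count scaled by the library total alone. BLAST matching may not separate near-identical members, and reads carry no molecular identifiers, so Wilson intervals and the limit of 3 counts cover counting error only.

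Counts were tested with edgeR 4.0.16 (R 4.3.3; TMM, quasi-likelihood, Benjamini-Hochberg) and single values by exact permutation (Python 3.11.15). Standard errors were derived from the F statistic. Alternatives were other scalings and filters, limma 3.58.1, DESeq2 1.42.0, edgeR's robust option, a replicate block and each library left out. Scripts were tested on simulated counts. The members and lists were chosen with earlier results of these data known. Named miRNAs are the members, the other HOX-cluster arms, miR-99 and miR-100, the 3 closest in pattern, the neighbours in rank, and cell-type markers (line, epithelial, red-cell, leukocyte, liver). hsa-miR-21-5p as a ratio partner was added after its values were seen.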

Additional observations from a re-analysis of the deposited data

How the results depend on the processing

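hsa-miR-10a-5p stayed below 0 and past an adjusted p of 0.05 in all 16 alternatives, from -0.90 to -0.44 on the log2 scale and from -0.90 to -0.66 with 1 library left out (highest adjusted p 0.0421, in edgeR with library totals). hsa-miR-10a-3p, hsa-miR-10b-5p and hsa-miR-196a-5p stayed below 0 and short of the threshold in all 16. With 1 library left out they ranged from -0.95 to -0.63, from -0.48 to -0.30 and from -0.77 to -0.49. Fitted values of hsa-miR-196b-5p rest on 0 to 2 counts per library and are not read as folds under any alternative. The members' summed level had a log2 ratio of group means of -0.40 as a share of counts (-0.46 to -0.33 with 1 library left out) and of -0.76 after TMM scaling.

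The number of miRNAs called over the whole table was 44 (31 lower, 13 higher). It was 71 (13, 58) with library totals, and 75 (16, 59) and 76 (16, 60) with limma and pseudocounts of 1 and 10. It was 51 (30, 21) with RLE factors, 52 (30, 22) with a mean TPM of at least 10, and 19 to 65 with 1 library left out, with 21, 29 and 19 without 231 EV replicates 1, 2 and 3. The split of 17 lower and 14 higher without 231 ACO1KD EV replicate 1 was the most even. Why these counts and splits moved was not tested. For library totals, the median of all tested miRNAs moved from -0.03 to 0.32.

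The a against b shares stayed lower in the knockdown in all 7 alternatives, by -2.80 to -1.0 percentage points for miR-10 and by -3.49 to -0.27 for miR-196 with 1 library left out, with the smallest differences of both without 231 ACO1KD EV replicate 2. The arm share of miR-10a went from -0.83 to 0.12 and turned sign without 231 EV replicate 1 (0.0566) and without 231 ACO1KD EV replicate 2 (0.12).

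The sample titles number the replicates but do not say that the numbers pair libraries. Deviations of same-numbered libraries from their group means correlated at 0.11, 0.12 and 0.00045 over miRNAs. Counting error on low-count miRNAs weakens such correlations, so they cannot decide whether the libraries are paired. With the replicate block, edgeR called 44 miRNAs, and hsa-miR-10a-5p was at -0.80, so the block changed no call of a member. At 8 to 36 counts in the knockdown libraries, depth limits what can be said of hsa-miR-10a-3p, and the same holds for hsa-miR-10b-5p at 20 to 47.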
